A study of Oryza sativa with 5 samples.

Results

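The peaks described here are those that lay within 1 Mb of the centromeres of rice, in maps of histone H3 trimethylated at lysine 4 (H3K4me3) and at lysine 27 (H3K27me3). A peak was taken when its midpoint fell within 1 Mb of an approximate centromere position of the Nipponbare reference, which gave 1900 of the 96576 peaks in 4 lists: 689 of 29941 and 641 of 27411 H3K4me3 peaks, and 293 of 19774 and 277 of 19450 H3K27me3 peaks, in replicates 1 and 2. The positions, in Mb for chromosomes 1 to 12 in order, were 16.7, 13.6, 19.4, 9.7, 12.4, 15.3, 12.1, 12.9, 2.8, 8.2, 12 and 11.9. The rule used no measured value, so the measures below were free to differ or not between these peaks and the rest.

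The chromatin came from rice (Oryza sativa) male meiocytes, also called pollen mother cells, at early prophase I of meiosis, in which homologous chromosomes begin to pair and recombine. It was cut with micrococcal nuclease and sonication from small numbers of crosslinked cells and precipitated with an antibody against either mark. Each mark had 2 libraries, which the labels call biological replicates, and all groups shared the same cell type and stage. Neither a cultivar nor a treatment is given in the labels. The series also held 1 input library, not used here. Each library was represented by its own list of called peaks, so read depth is unknown and a peak number is a count of called sites, not of reads.

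Centromeres are where the kinetochore assembles, on nucleosomes in which the variant CENH3 takes the place of histone H3. In rice they hold CentO satellite repeats and centromeric retrotransposons, and they sit within pericentromeric heterochromatin that is poor in genes, although some rice centromeres are known to contain expressed genes. H3K4me3 usually marks the starts of active genes. H3K27me3 is laid down by Polycomb repressive complex 2 and in plants marks mostly silent genes in the chromosome arms.

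No label or header names the genome build of the lists, so no peak was assigned to a gene and no sequence is shown. Nothing independent of the peaks was at hand to check the positions, which were used as given. Long stretches with no peak in any list were frequent near them: stretches of at least 100 kb filled 31.5% of the 12 windows, against 6.39% of the rest, and each of the 12 windows held at least 1. The longest such stretch of a window measured 168.5 to 412.2 kb (median 233.3 kb). It was the longest of its whole chromosome in 4 windows, on chromosomes 1, 7, 9 and 11, and among the 3 longest in 10. It spanned the position itself on chromosomes 7, 9 and 12. The longest stretch of the whole series, 589.0 kb on chromosome 6, lay 3.21 Mb from the position there. No annotation of assembly gaps or repeats was at hand for these lists, and the part of either in the densities below was not tested.

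Both marks were sparse near the centromeres, and H3K27me3 more so than H3K4me3. H3K4me3 had 28.7 and 26.7 peaks per Mb within 1 Mb of the positions, against 83.9 and 76.7 per Mb in the rest of the genome. H3K27me3 had 12.2 and 11.5 peaks per Mb there, against 55.8 and 55.0 in the rest. The windows thus held 0.342 and 0.348 times the H3K4me3 density of the rest and 0.219 and 0.210 times the H3K27me3 density. The replicates of each mark gave nearly the same ratio, while no H3K27me3 library overlapped the H3K4me3 libraries.

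The covered length gave the same picture. H3K4me3 peaks covered 1.71% and 1.298% of the windows, against 5.37% and 3.79% of the rest, and H3K27me3 peaks 1.33% and 1.12%, against 7.27% and 5.996%. In the rest H3K27me3 covered more of the genome than H3K4me3, whereas within 1 Mb the ranges of the marks overlapped. For bases covered in both replicates, called regions from here on, H3K4me3 regions held 1.29 bases for each base of H3K27me3 regions within 1 Mb, against 0.690 in the rest. The marks were called differently. The H3K27me3 lists are broad and reach down to a −log10 q of 1.02 and 1.01, the narrow H3K4me3 lists only to 2.01. The part of this in which mark covered more was not tested.

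The density was tested across libraries, because peaks are not replicates. The log2 ratio of density within 1 Mb to that in the rest averaged −1.53 ± 0.017 for H3K4me3 and −2.22 ± 0.041 for H3K27me3 (SD, n = 2 libraries each). It was negative in 4 of 4 libraries (mean −1.88, exact permutation p = 0.125, two-sided, the smallest 4 libraries can give). The 2 marks differed by 0.69 on this log2 scale (exact permutation p = 0.333, two-sided, the smallest 2 against 2 libraries can give). With Benjamini-Hochberg adjustment over the 9 tests of the main comparisons both p-values were 0.482, so neither result can pass 0.05 in a design of this size. The difference between the marks depended on the width of the window: it was 1.55 within 0.5 Mb and 0.13 within 2 Mb.

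With stretches of at least 100 kb without peaks left out of the length, the density within 1 Mb was 0.468 and 0.476 times that of the rest for H3K4me3 and 0.299 and 0.287 times for H3K27me3. The difference between the marks does not depend on that length, which cancels between them.

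The profiles with distance were unlike for the marks. H3K4me3 density in the first 5 steps of 1 Mb from the position was 28.7, 42.8, 44.4, 42.0 and 52.1 peaks per Mb in replicate 1 and 26.7, 37.9, 40.0, 36.3 and 45.5 in replicate 2. The step from 0 to 1 Mb was the lowest in all 4 lists. H3K4me3 density then climbed along the arms to 122 and 114 peaks per Mb at 13 to 14 Mb. H3K27me3 density in the same 5 steps was 12.2, 31.5, 31.1, 40.4 and 47.7 peaks per Mb in replicate 1 and 11.5, 30.4, 31.0, 38.3 and 48.6 in replicate 2. It came to about the mean density of the rest at 5 to 7 Mb, with 54.9 and 55.7 peaks per Mb in those 2 steps in replicate 1 and 57.3 and 54.0 in replicate 2. Of the 15 steps that all 12 chromosomes reach, it was highest at 12 to 13 Mb, with 73.6 and 73.1 peaks per Mb. The step from 0 to 1 Mb had 0.670 and 0.704 times the H3K4me3 density of the step from 1 to 2 Mb, but only 0.387 and 0.379 times the H3K27me3 density. Steps beyond 15 Mb rest on fewer chromosomes, 8 of them at 16 to 17 Mb.

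**Figure D1:**
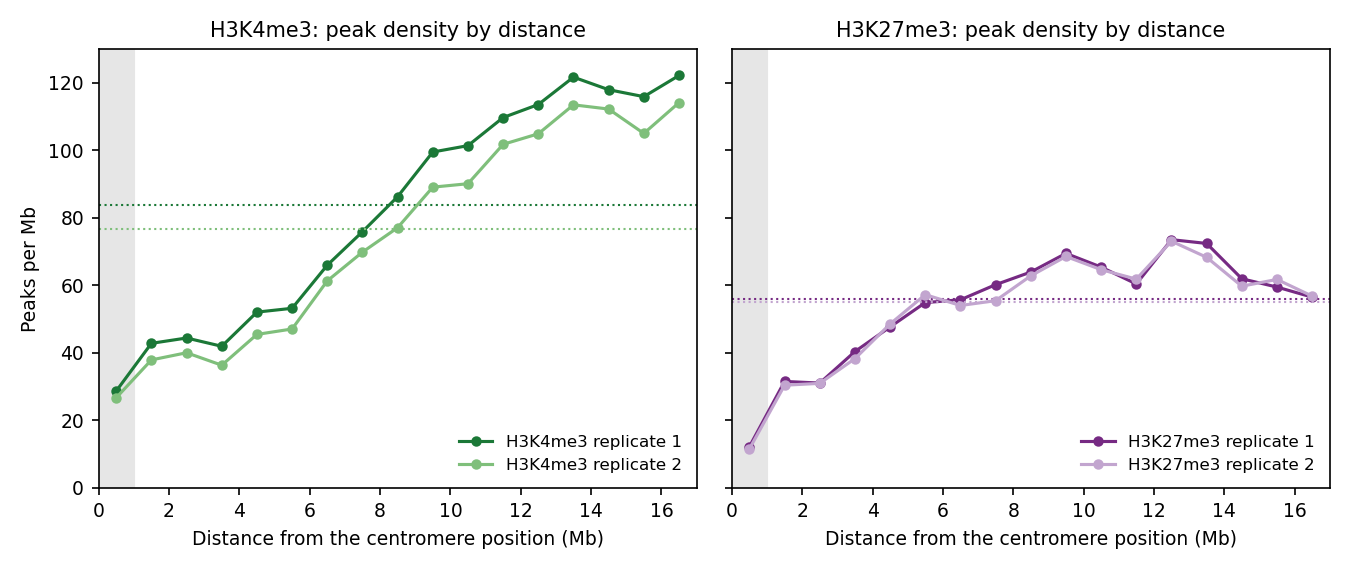
Peaks per Mb (vertical axis) in 1 Mb steps of distance from the centromere position (horizontal axis), for H3K4me3 (left) and H3K27me3 (right). Each line is 1 library, the dotted lines are the densities of the rest, and the grey band is the first step, where H3K27me3 was at 12.2 and 11.5 peaks per Mb and H3K4me3 at 28.7 and 26.7.

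Against the flanks from 1 to 5 Mb alone, the windows still had a lower density of both marks. H3K4me3 had 28.7 and 26.7 peaks per Mb in the windows, against 45.3 and 39.9 in the flanks, ratios of 0.634 and 0.669. H3K27me3 had 12.2 and 11.5, against 37.5 and 36.9, ratios of 0.325 and 0.312. For H3K4me3 the flanks were themselves at 0.540 and 0.520 times the density of the rest, and for H3K27me3 at 0.672 and 0.672 times. The density of both marks was thus low over several Mb and lowest in the windows. Relative to the flanks, the windows were lower for H3K27me3 than for H3K4me3.

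Inside the windows the density of both marks was lowest next to the position. In 4 steps of 0.25 Mb outward from the position, H3K4me3 had 18.5, 27.8, 33.3 and 35.2 peaks per Mb in replicate 1 and 17, 26.5, 31.2 and 32.2 in replicate 2. H3K27me3 had 3.67, 7.50, 17 and 20.7 peaks per Mb in replicate 1 and 2.50, 7.50, 15.8 and 20.3 in replicate 2. The innermost step held only 22 and 15 H3K27me3 peaks over all 12 chromosomes, against 111 and 102 H3K4me3 peaks. At the outer edge of the windows, H3K4me3 had 41.7 and 39.6 peaks per Mb from 0.9 to 1.0 Mb and 42.9 and 39.2 from 1.0 to 1.1 Mb, and H3K27me3 had 25 and 23.8 just inside and 35.8 and 35.0 just outside.

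**Figure D2:**
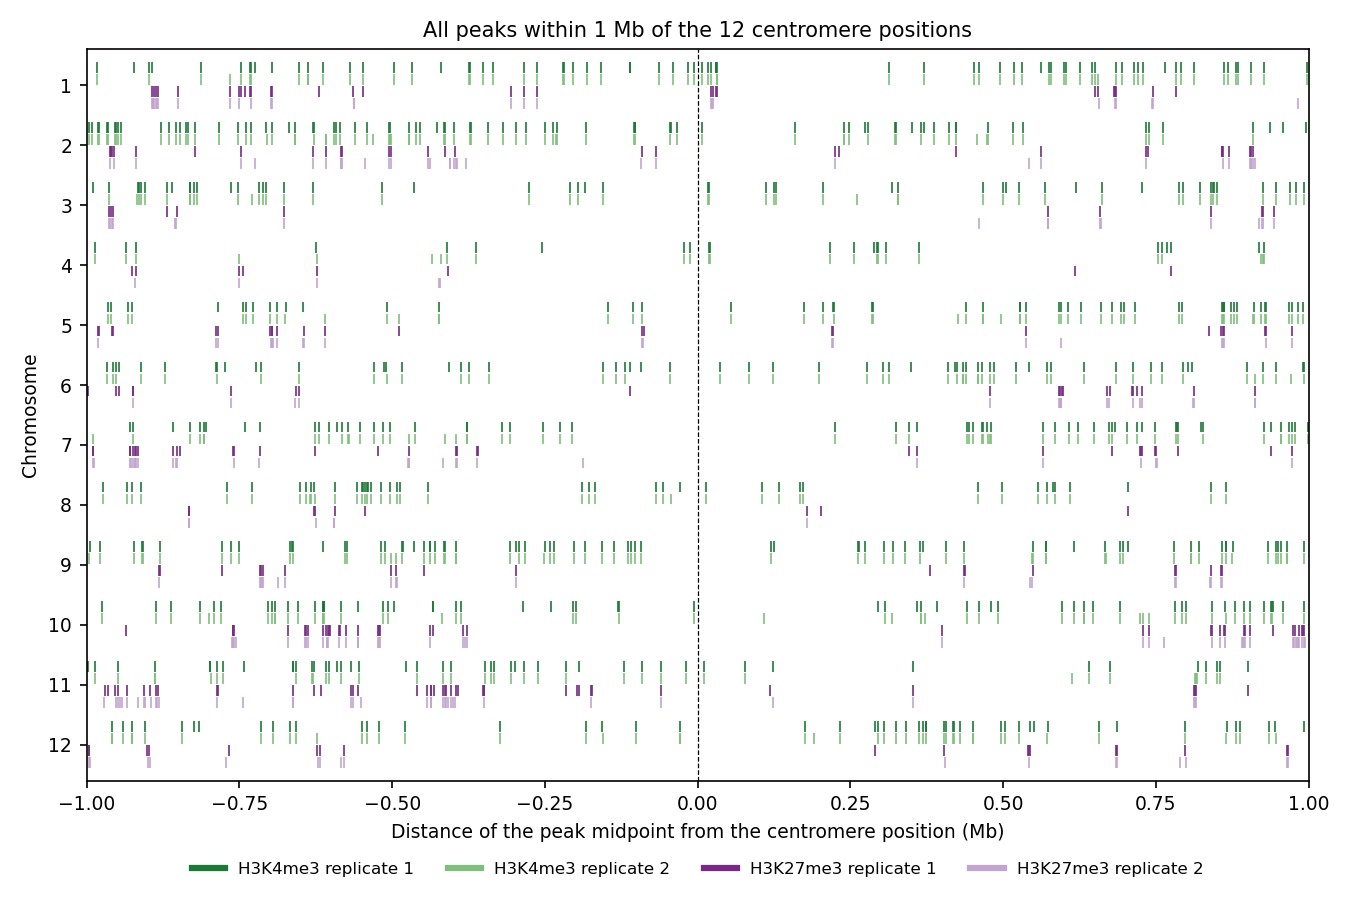
Every peak within 1 Mb of the 12 positions, drawn as a tick at the distance of its midpoint from the position (horizontal axis, Mb, dashed line at 0), with chromosomes 1 to 12 down the page and the 4 libraries of a chromosome as 4 rows. The H3K4me3 ticks of both replicates come close to the position on most chromosomes, whereas 8 of 12 chromosomes had no H3K27me3 tick of either replicate within 100 kb.

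H3K4me3 came close to the position on nearly every chromosome. The nearest H3K4me3 peak lay 5.33 to 205.6 kb from the position in replicate 1 and 5.46 to 205.7 kb in replicate 2, with medians of 14.5 and 14.5 kb, and the farthest was on chromosome 7 in both. In each replicate all 12 of these nearest peaks overlapped a peak of the other replicate. The nearest H3K27me3 peak lay 19.9 to 572.4 kb away in replicate 1 and 20.7 to 477.4 kb in replicate 2, with medians of 233.6 and 242.1 kb, and 7 and 8 of the 12 overlapped a peak of the other replicate. No H3K27me3 peak of either replicate had its midpoint within 100 kb on chromosomes 3, 4, 6, 7, 8, 9, 10 and 12, and none within 250 kb on chromosomes 3, 4, 9, 10 and 12. Within 250 kb each chromosome had an H3K4me3 peak in both replicates. The positions are approximate and rounded, so the shorter of these distances are finer than the positions can resolve. H3K4me3 also had more peaks per Mb in the windows than H3K27me3, and distances from other points were not measured.

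The H3K27me3 peaks closest to any position were on chromosome 1. There a peak of 3650 bp at 16719872 to 16723521 in replicate 1, and of 1972 bp at 16720724 to 16722695 in replicate 2, began 19.9 and 20.7 kb from the position and overlapped an H3K4me3 region. By fold enrichment over the caller's background, as the authors deposited it, it ranked at percentiles 89.7 and 70.5 of its lists. The nearest H3K4me3 peaks on that chromosome, of 683 and 200 bp, lay on the other side of the position as given, 5.33 and 5.78 kb away. The position is too coarse to place these peaks on a side of the centromere. On chromosome 4 the nearest H3K4me3 peaks were narrow, at 278 and 204 bp, and ranked at percentiles 97.4 and 99.8 by fold.

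The density was lower in the window than in the rest of its own chromosome in 12 of 12 windows, in each of the 4 lists. For H3K4me3 the ratio of window to rest ranged over chromosomes between 0.157 and 0.484 in replicate 1 (median 0.367) and between 0.175 and 0.495 in replicate 2 (median 0.373). For H3K27me3 it ranged between 0.077 and 0.356 in replicate 1 (median 0.225) and between 0.049 and 0.399 in replicate 2 (median 0.193). Both H3K27me3 ratios lay below both H3K4me3 ratios in 11 of 12 windows, the exception being chromosome 10.

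**Figure D3:**
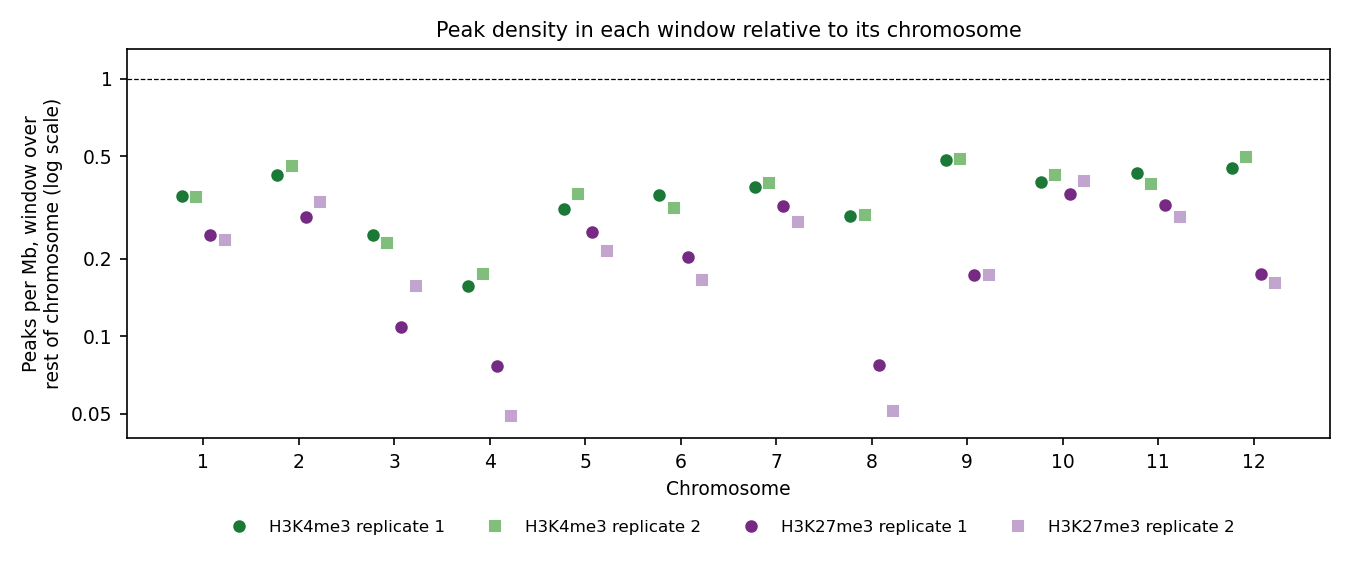
Peak density in each 2 Mb window divided by that in the rest of the same chromosome (vertical axis, log scale, dashed line at 1) for chromosomes 1 to 12 (horizontal axis), with circles for replicate 1 and squares for replicate 2. All 48 points lie below 1, and the H3K27me3 points of chromosomes 4 and 8 are the lowest, between 0.049 and 0.077.

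The windows of chromosomes 4 and 8 had the fewest H3K27me3 peaks. Chromosome 8 had 44 and 41 H3K4me3 peaks in its window and 9 and 6 H3K27me3 peaks, or 4.89 and 6.83 H3K4me3 peaks for each H3K27me3 peak, against 1.29 and 1.19 in the rest of that chromosome. None of its H3K4me3 peaks touched an H3K27me3 region. Of its H3K27me3 peaks, 2 of 9 in replicate 1 (22.2%) and 0 of 6 in replicate 2 overlapped an H3K4me3 region. In the rest of that chromosome 25.2% and 16.98% did. The widest H3K27me3 peaks of the window measured 782 and 507 bp. Only 2 of the 9 and 2 of the 6 H3K27me3 peaks there overlapped a peak of the other replicate, whereas 38 of 44 and 39 of 41 H3K4me3 peaks did. Chromosome 4 had 24 H3K4me3 peaks in each replicate and 8 and 5 H3K27me3 peaks, of which 2 and 2 were shared between the replicates. Its window was the emptiest, with 80.7% of its length in peak-free stretches of at least 100 kb, 9 in number, against 12.7% of the rest of that chromosome. On chromosome 8 such stretches filled 39.0% of the window, against 7.05% of the rest.

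Chromosomes 10 and 11 stood at the other end. Chromosome 10 had 60 and 58 H3K4me3 peaks and 42 and 45 H3K27me3 peaks in its window, and chromosome 11 had 49 and 39 H3K4me3 peaks and 43 and 38 H3K27me3 peaks. The number of H3K4me3 peaks for each H3K27me3 peak was 1.43 and 1.29 on chromosome 10 and 1.14 and 1.03 on chromosome 11, the lowest of the 12 windows. Outside the windows this ratio was lower still, at 1.28 and 1.22 on chromosome 10 and 0.860 and 0.764 on chromosome 11.

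H3K4me3 was most dense, relative to the rest of the chromosome, on chromosomes 9 and 12. Chromosome 9, whose position lies closest to a chromosome end, had 75 and 70 H3K4me3 peaks and 20 and 20 H3K27me3 peaks. The densities were 0.484 and 0.487 times those of the rest for H3K4me3 and 0.173 and 0.172 times for H3K27me3. Chromosome 12 had 52 and 50 H3K4me3 peaks and 18 and 17 H3K27me3 peaks, with ratios of 0.449 and 0.495 for H3K4me3 and of 0.174 and 0.161 for H3K27me3. In peak number the window of chromosome 2 was the richest, with 82 and 81 H3K4me3 peaks and 31 and 34 H3K27me3 peaks.

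Peak widths near the centromeres differed little from the rest for H3K4me3 and were somewhat smaller for H3K27me3. The median H3K4me3 width was 550 and 438 bp within 1 Mb, against 570 and 429 bp in the rest, so the replicates differed in sign. The median H3K27me3 width was 626 and 556 bp, against 734 and 620 bp, lower in both replicates. The log2 ratio of medians averaged −0.011 ± 0.058 for H3K4me3 and −0.19 ± 0.051 for H3K27me3 (SD, n = 2 libraries each), and over the 4 libraries −0.10 (exact permutation p = 0.25, two-sided). The difference between the marks was 0.18 (exact permutation p = 0.333, two-sided). Against the flanks from 1 to 5 Mb, with median H3K27me3 widths of 688.5 and 565 bp, the H3K27me3 ratio averaged only −0.080, with −0.14 and −0.023 in the replicates. Width depends on the caller's mode as well as on the chromatin, since H3K4me3 lists hold narrow peaks and H3K27me3 lists broad ones.

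Wide peaks were scarce. A single H3K4me3 peak of replicate 1 and none of replicate 2 reached 2000 bp within 1 Mb, against 0.660% and 0.052% of the peaks in the rest. Of the H3K27me3 peaks 33 and 27 did, or 11.3% and 9.75%, against 16.5% and 13.3% in the rest. The flanks from 1 to 5 Mb had 12.3% and 9.32%, so the H3K27me3 peaks of the windows were close to their surroundings in this respect.

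**Figure D4:**
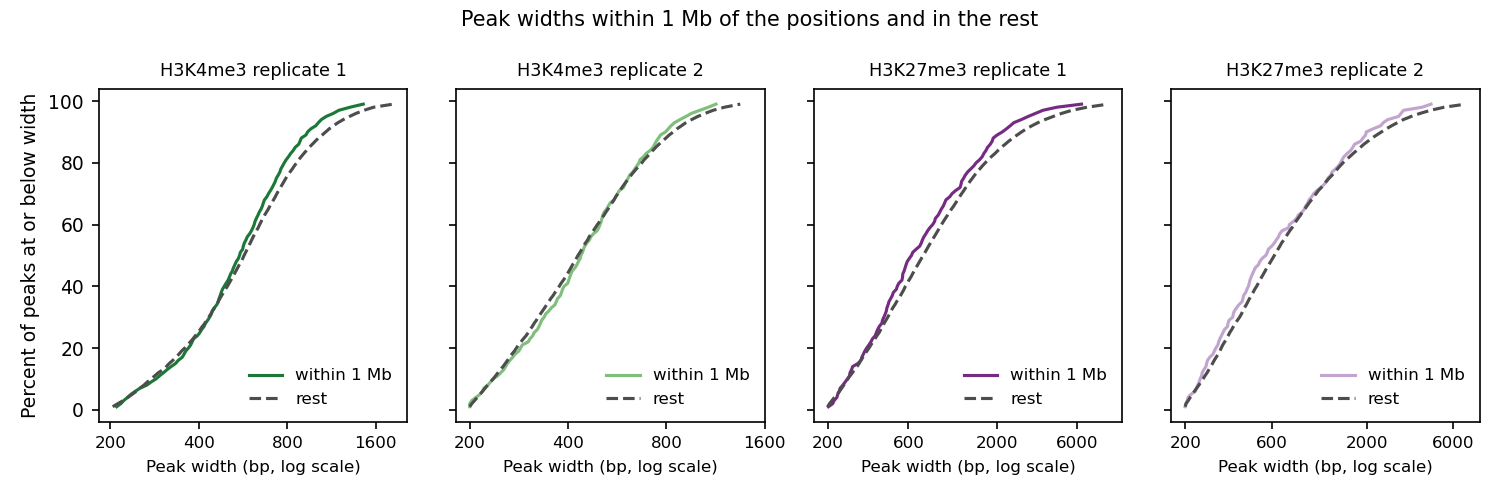
Cumulative share of peaks (vertical axis, percent) by peak width (horizontal axis, bp, log scale) in each library, within 1 Mb of the positions (coloured) and in the rest (dashed grey), drawn for percentiles 1 to 99. The curves of H3K4me3 replicate 2 nearly coincide, with medians of 438 and 429 bp, and those of H3K27me3 replicate 1 lie farthest apart, with medians of 626 and 734 bp.

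The peaks of the windows were also spaced more widely. The median gap between consecutive H3K4me3 peaks was 18.4 and 18.8 kb within 1 Mb, against 6.08 and 6.48 kb in the rest. That of H3K27me3 peaks was 15.5 and 9.11 kb, against 2.52 and 1.82 kb. Many H3K27me3 peaks still lay in clusters, with 39.9% and 44.9% of consecutive pairs less than 5 kb apart, against 58.9% and 62.6% in the rest. For H3K4me3 these shares were 18.0% and 18.3%, against 42.4% and 40.8%.

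The widest regions of the windows, covered in both replicates, were modest for H3K4me3. The 5 widest H3K4me3 regions measured 1184 to 1313 bp and ranked 254th to 453rd in the genome. They lay on chromosomes 4, 1, 10, 9 and 10 in order of width, and none touched an H3K27me3 region or an H3K27me3 peak of either replicate. The widest lay on chromosome 4 at 10626091 to 10627403. The fourth, on chromosome 9 at 2706051 to 2707244 (1194 bp), bordered on the 212.2 kb peak-free stretch that spans the position of that chromosome, and its peaks ranked at percentiles 95.02 and 73.1 by fold. The third, on chromosome 10 at 7994611 to 7995821 (1211 bp), ranked at percentiles 87.3 and 85.4.

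One H3K27me3 region of the windows was among the longest in the genome. It covered chromosome 11 from 11098142 to 11112252 (14111 bp), ranked 16th by length of all H3K27me3 regions and lay 894.8 kb from the position, near the edge of its window. Its peaks measured 16832 and 14111 bp and ranked at percentiles 98.0 and 98.0 by fold, and 783 bp of it were also H3K4me3 region. The next was on chromosome 2 from 14506225 to 14512221 (5997 bp, 909.2 kb from the position), with 856 bp of H3K4me3. Of the 5 longest, the other 3 were 4250 to 4497 bp long, held no H3K4me3 region and were on chromosome 11 (1) and chromosome 10 (2). In all, 21 of 218 H3K27me3 regions within 1 Mb (9.63%) reached 2000 bp, against 2125 of 16196 (13.1%) in the rest. A length of 5000 bp was reached by 2 of 218, against 370 of 16196, and 2 regions are too few to compare.

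Sharing between replicates differed from the rest by a few percentage points, with no common direction. A peak counted as shared when it overlapped a peak of the other replicate by at least 1 bp. For H3K4me3 the shared percentage was 82.3% (95% Wilson interval 79.3 to 85.0%) in replicate 1 and 91.6% (89.2 to 93.5%) in replicate 2 within 1 Mb, against 79.3% (78.8 to 79.8%) and 93.3% (93.0 to 93.6%) in the rest. For H3K27me3 it was 65.2% (59.6 to 70.4%) and 74.7% (69.3 to 79.5%), against 67.3% (66.6 to 67.9%) and 79.9% (79.3 to 80.4%). The intervals cover counting error only. The difference was positive in 1 library and negative in 3, with a mean of −1.49 percentage points (exact permutation p = 0.50, two-sided). Between the marks it differed by 4.23 percentage points (exact permutation p = 0.333, two-sided).

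When only overlaps of 50% or more of each peak of the pair were counted, H3K4me3 peaks near the centromeres were shared more often than the rest in both replicates. The shares were 72.0% and 77.4%, against 64.6% and 70.6%, a mean difference of 7.07 percentage points (exact permutation p = 0.50, two-sided, the smallest 2 libraries can give). For H3K27me3 they were 41.6% and 44.0%, against 42.2% and 42.9%.

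In rank by fold within their own lists the peaks of the marks stood on opposite sides of the rest. The median H3K4me3 peak of the windows stood in the 54.7th and 57.0th percentile, against the 49.9th and 49.8th for the rest. The median H3K27me3 peak stood in the 46.7th and 46.0th, against the 50.03rd and 50.05th. Among H3K4me3 peaks, 97.1% and 76.0% had a −log10 q of at least 5, against 95.7% and 71.8% in the rest. Among H3K27me3 peaks, 26.96% and 15.9% did, against 24.3% and 17.1%. Over the 4 libraries the mean difference in rank was 1.14 percentile points (exact permutation p = 0.75, two-sided), and −4.71 among peaks with a −log10 q of 5 or more.

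The peaks of highest fold in the windows included the top peak of 2 lists. In H3K4me3 replicate 1 it was a peak of 1009 bp on chromosome 11 at 12351954 to 12352962 with a deposited fold of 30.3, the highest of the list, whose second highest was 16.3. In H3K27me3 replicate 2 it was a peak of 1029 bp at the same place, 12351947 to 12352975, with a fold of 12.3, again the highest of its list. H3K27me3 replicate 1 had a peak of 803 bp there with a fold of 3.09, in the 87.5th percentile, and H3K4me3 replicate 2 had none within 259.1 kb. The site lay 352.5 kb from the position and was bounded on both sides by peak-free stretches, the longer of which measured 259.1 kb. In the other 2 lists the highest peaks of the windows were on chromosome 11 at 12831524 to 12832165 (642 bp, fold 5.43, 19th of H3K4me3 replicate 2) and on chromosome 2 at 14506092 to 14512279 (6188 bp, fold 3.79, 400th of H3K27me3 replicate 1).

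The share of peaks that met the other mark was lower than in the rest for H3K4me3 in both replicates, and for H3K27me3 the replicates differed in sign. Of the H3K4me3 peaks within 1 Mb, 9.72% (95% Wilson interval 7.73 to 12.2%) and 10.8% (8.59 to 13.4%) met an H3K27me3 region, with 1 bp or more in common, against 15.0% (14.6 to 15.4%) and 14.9% (14.5 to 15.4%) in the rest. Of the H3K27me3 peaks, 25.3% (20.6 to 30.5%) and 17.3% (13.3 to 22.2%) overlapped an H3K4me3 region, against 25.6% (24.9 to 26.2%) and 16.6% (16.1 to 17.2%). The mean difference over the 4 libraries was −2.27 percentage points, negative in 3 of them (exact permutation p = 0.375, two-sided). This mean turned to 3.02 points when all 4 lists were cut to a −log10 q of 5 or more. The cut also reduced the regions of the other mark that peaks were counted against. The differences were then −2.14 and −0.986 for H3K4me3 and 6.62 and 8.59 for H3K27me3. Within 0.5 Mb, with the lists uncut, the differences were −9.21 and −8.80 for H3K4me3 and 4.32 and 5.02 for H3K27me3. H3K4me3 peaks of low fold met H3K27me3 most often: with each list cut into 4 equal groups by fold, these shares, by increasing fold, were 28.6%, 9.62%, 3.49% and 0.966% within 1 Mb in replicate 1, against 31.1%, 19.8%, 7.44% and 1.52% in the rest. In replicate 2 they were 20.1%, 11.8%, 10.1% and 3.70%, against 22.7%, 17.3%, 13.1% and 6.50%. The share was lower within 1 Mb in each of these 8 pairs. The replicates share most of their peaks, so the pairs are not 8 separate observations. Each group held 139 to 207 window peaks, and the low shares rest on few of them. With the rest weighted to the mix of fold groups of the window peaks, the H3K4me3 differences were −4.03 and −3.44 percentage points, against −5.28 and −4.18 unweighted. Within 2 Mb the mean H3K4me3 difference was −0.808 points, against −4.73 within 1 Mb.

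H3K4me3 regions covered 1.15% of the windows and 3.42% of the rest, and H3K27me3 regions 0.886% and 4.96%. Stretches with both marks made up 7.56% of the H3K4me3 region bases and 9.79% of the H3K27me3 region bases within 1 Mb, against 10.9% and 7.50% in the rest. Relative to the product of the coverages of the marks in the same zone, the shared length was 8.53 times within 1 Mb and 2.19 times in the rest. With pairs of single lists it was 7.07 to 10.2 times within 1 Mb and 1.87 to 2.91 times in the rest. By its construction this ratio is raised where both marks are restricted to part of a zone, and 31.5% of the windows lay in long peak-free stretches, whose part in it was not tested. In 1 Mb steps outward the ratio was 8.53, 6.35, 6.53, 4.13 and 4.21, and it reached 1.53 beyond 12 Mb.

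**Figure D5:**
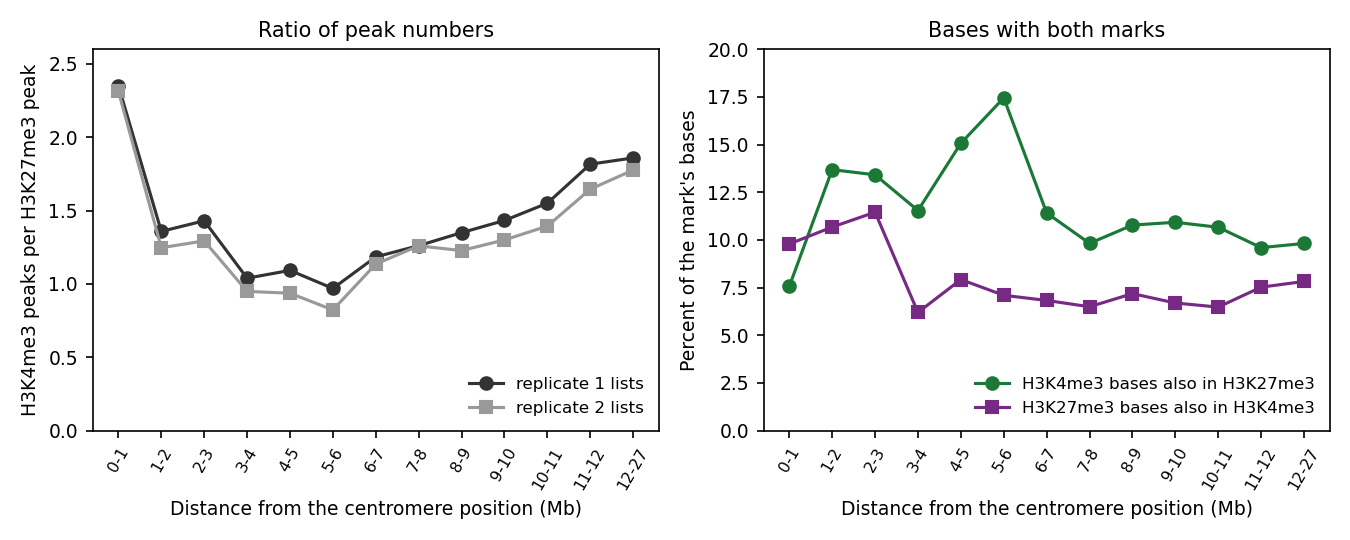
Left, H3K4me3 peaks for each H3K27me3 peak in steps of distance from the position (horizontal axis, Mb, the last step pooled) for the replicate 1 and replicate 2 lists. Right, percent of the region bases of each mark that were also in a region of the other mark. Among the steps drawn, the number ratio was highest in the first, 2.35 and 2.31, and lowest at 5 to 6 Mb, 0.969 and 0.822.

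The relative number of the marks did not run evenly along the arms. For each H3K27me3 peak there were 2.35 and 2.31 H3K4me3 peaks within 1 Mb, 1.36 and 1.25 at 1 to 2 Mb, 0.969 and 0.822 at 5 to 6 Mb and 1.86 and 1.78 beyond 12 Mb. The last 2 values pool many steps, and single distal steps had higher ratios than the first step. At 21 to 22 Mb, which 3 chromosomes reach, there were 412 and 392 H3K4me3 peaks and 156 and 163 H3K27me3 peaks. With distances beyond 12 Mb pooled, the share of H3K4me3 region bases that were also H3K27me3 was lowest in the first step. It was 7.56% at 0 to 1 Mb, 13.7% at 1 to 2 Mb, 17.4% at 5 to 6 Mb and 9.81% beyond 12 Mb. The pooling hides a lower distal step, here in H3K4me3 peak bases of single lists that lay in H3K27me3 regions. At 24 to 25 Mb, which 2 chromosomes reach, these were 5.86% and 6.25%, against 7.75% and 8.70% at 0 to 1 Mb.

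Stretches with both marks were sparse near the centromeres and about as long as in the rest. There were 56 within 1 Mb, or 2.33 per Mb, against 10.2 per Mb in the rest. These were 1.56% of all such stretches, while the windows held 2.29% of H3K4me3 regions and 1.33% of H3K27me3 regions. They made up 20.8 kb in all, with a median of 324 bp, against a median of 316 bp in the rest. The 5 longest measured 662 to 856 bp and lay 348.6 to 948.3 kb from the positions, 3 of them on chromosome 11. The longest was on chromosome 2 at 14508231 to 14509086, inside the second longest H3K27me3 region of the windows. Its H3K4me3 peaks ranked at percentiles 41.2 and 56.1 by fold and its H3K27me3 peaks at 98.0 and 96.5. The second, on chromosome 11 at 11051303 to 11052147 (845 bp), stood at percentiles 38.3 and 33.4 for H3K4me3 and at 90.1 and 83.1 for H3K27me3. Peak lists from a population of cells do not tell whether both marks sat on the same molecules.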

How the data were processed

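H3K4me3 and H3K27me3 were measured by chromatin immunoprecipitation and sequencing in 2 libraries each, grouped and numbered by sample title. Per the submitters' processing notes, fastp, Bowtie2, Picard, SAMtools, deepTools and MACS2 were used. No source used here gives their versions, the control, the thresholds or the genome build. The authors deposited 1 list per library, in the narrow format for H3K4me3 and the broad format for H3K27me3. Each peak has a deposited fold (a ratio over the caller's background), −log10 p and −log10 q, a score that was not used and, for narrow peaks, a summit that was not used. Between the windows and the rest, fold was compared only as a percentile within a list. For single peaks the deposited fold is also given, and its size is not comparable between lists. The smallest −log10 q was 2.01 in both H3K4me3 lists and, for H3K27me3, 1.02 and 1.01. Peak names carry different tags per library (merge, uniq, subsample), so handling before calling may have differed, which could change peak number and width, also in repeats. Depth is unknown.

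Peaks within 1 Mb of the 12 positions (24.0 Mb, 6.44% of the 372.8 Mb up to the last peak ends) were compared with all other peaks, library by library. Tests were exact permutations over libraries, flipping signs over 4 or exchanging 2 against 2. Adjustment covered the 9 tests of the main comparisons, and p-values for alternatives, for 1 mark alone and for the marks' difference in fold rank are unadjusted. Regions are bases covered in both replicates of a mark. The regions described singly were chosen by rule: the nearest peak per list and longest peak-free stretch of each window, the 5 longest regions of each kind and the top fold per list. Chromosomes, windows and examples discussed beyond these were picked after their values were seen. The members, measures and regions were chosen with earlier results of these data known. Python 3.11.15, numpy 2.4.6, scipy 1.17.1 and matplotlib 3.10.9 were used, and the code was tested on simulated lists.

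Replicate numbers name libraries of different antibodies and do not pair samples. Alternatives were windows of 0.5 and 2 Mb, a −log10 q of at least 5, flanks of 1 to 5 Mb, equal weight per chromosome, leaving out each library or chromosome, overlap of at least 50%, weighting by fold group and single lists of the other mark.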

Additional observations from a re-analysis of the deposited data

Results flagged for a closer look

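The rank by fold of the peaks within 1 Mb of the centromere positions was set apart because both H3K4me3 libraries differed from the rest in one direction and both H3K27me3 libraries in the other. H3K4me3 peaks of the windows stood 4.76 and 7.25 percentile points above the rest of their lists, and H3K27me3 peaks differed by −3.37 and −4.09 points from theirs. The difference between the marks was 9.74 percentile points (exact permutation p = 0.333, two-sided, the smallest 2 against 2 libraries can give). The pattern did not hold within 0.5 Mb, where H3K27me3 replicate 2 stood at 1.58 points and replicate 1 at −6.04, against 9.88 and 10.1 for H3K4me3. Within 2 Mb the H3K27me3 differences were −0.277 and −5.10 points. The mean of each mark kept its sign in every alternative run, at 3.10 to 9.98 points for H3K4me3 and −13.4 to −2.23 points for H3K27me3 over those that keep all libraries and chromosomes. The lower end for H3K27me3 is with a −log10 q of at least 5, which left 79 and 44 of its peaks in the windows. Fold depends on the caller's background, and its part in the difference was not tested.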

How the results depend on the processing

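Of 462 values under alternatives, 437 kept the direction of the values reported and 25 did not. None of the 155 values of density and covered share was reversed, and the mean log2 density ratio lay between −2.00 and −1.75 with 1 library left out. The totals of 462 and 155 include values that could not change. With a library of the other mark left out, the density, covered share, width, fold rank and sharing of 1 mark stay as they were. The replicate block below, and the marks' density difference without long peak-free stretches, also equal the main values by arithmetic. The difference between the marks in density was 1.55 with windows of 0.5 Mb, 0.13 with 2 Mb, 1.03 against the flanks and 0.90 with chromosomes weighted equally. No test could pass 0.05, so p-values say nothing about stability. Reversals were in small differences, and the cause was not tested. For H3K27me3 width the log2 ratio, −0.19 against the rest, was −0.080 against the flanks and −0.31 where −log10 q was 5 or more. For H3K4me3 width the log2 ratio was 0.058 against the flanks, 0.0059 without chromosome 3 and −0.052 to 0.030 with 1 library left out. The mean sharing difference, in percentage points here and below, was 0.811 where −log10 q was 5 or more, 3.67 with 50% overlap and −3.61 to 0.626 with 1 library left out. For H3K4me3 alone it was −0.348 when weighted by fold group, and for H3K27me3 alone 0.260 with 50% overlap. The mean fold rank difference was −4.71 where −log10 q was 5 or more, −0.278 with chromosomes weighted equally, −0.152 without chromosome 2 and −0.901 to 2.88 with 1 library left out. The mean difference in overlap of the marks was 3.02 where −log10 q was 5 or more and −5.59 to 0.996 with 1 library left out. For H3K27me3 alone, 0.191 over all peaks, it was 7.61 where −log10 q was 5 or more, 4.67 within 0.5 Mb, 1.90 against the flanks, −1.02 with chromosomes weighted equally, −0.313 with 50% overlap, −0.128 when weighted by fold group, −0.422, −0.696, −1.23, −0.155 and −0.194 without chromosomes 1, 2, 5, 9 and 11, and −0.297 to 3.58 with 1 library left out. Leaving out a replicate leaves its mark with no sharing value. With the replicate number as a block (replicate block), the differences between the marks were 0.69 for density, 0.18 for width and 4.23 for sharing. These means equal those without the block by arithmetic, so only the p-value could change. Each had an exact permutation p of 0.50, the smallest 2 pairs can give. The replicate numbers do not come from shared samples. Read depth and mapping filters are unknown, so their part in peak number near the positions was not tested.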

Other observations

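A second peak of extreme fold lay near the one on chromosome 11 and was picked out after its values were seen. The peak of second highest fold in H3K27me3 replicate 2 (466 bp, fold 9.26) covered chromosome 11 from 12123143 to 12123608. With the top peak at 12351947 to 12352975 it bounded a stretch of 228 kb that held no peak of any list. H3K4me3 replicate 1 had a peak there too (379 bp, fold 5.98, 80.4th percentile). In H3K27me3 replicate 1 the nearest peak was 3.89 kb away, and in H3K4me3 replicate 2 it was 45.8 kb away.

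H3K27me3 peaks of the windows were not balanced about the positions. Of them 180 of 293 and 174 of 277 (61.4% and 62.8%) lay on the side of lower coordinates, which held more peaks than the other side in 9 and 10 of the 12 windows. H3K4me3 peaks were split nearly evenly over the windows together, with 52.0% and 51.5% on that side, but not in single windows. That side held more of them in 5 and 4 of the 12 windows. On chromosome 11, 38 and 28 H3K4me3 peaks lay on the lower side and 11 and 11 on the upper. On chromosome 5, 17 and 18 lay on the lower side and 38 and 40 on the upper. By difference in H3K27me3 counts the window of chromosome 11 was the most uneven, with 37 and 33 peaks on the lower side and 6 and 5 on the upper. On chromosome 4, replicate 2 had 5 H3K27me3 peaks on the lower side and 0 on the upper. The positions are approximate, so a shift of a position would move such counts.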
